A study of Homo sapiens with 4 samples.

Results

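The Notch receptors NOTCH1, NOTCH2 and NOTCH3, the ligands JAG1, JAG2 and DLL1, and the target genes HES1, HEY1 and NRARP were examined in lung adenocarcinoma (LAD) cells with a constitutively active AKT1. The 9 genes were picked by name and function, and each was found by its Ensembl identifier among the 60558 genes of the deposited tables. RNA had been sequenced from A549 and HCC827 cells, each with myr-AKT1 or with the vector, 1 library per condition. A549 and HCC827 are established human LAD lines, HCC827 being one that carries an activating EGFR deletion. The myr-AKT1 cells were transduced with an AKT1 that a myristoylation signal holds at the membrane and keeps active, and the vector cells received the control vector. Whether a transduced population was a pool or a clone is not given in the sources used here. With 1 library per condition no difference within a line has a replicate check, and in bulk RNA more cells that use a gene cannot be told apart from more RNA per cell.

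In Notch signalling a ligand on one cell binds a receptor on its neighbour, and the pull of ligand endocytosis opens the receptor to cleavage by ADAM proteases and then by γ-secretase. The freed intracellular domain enters the nucleus and joins the DNA-binding protein RBPJ and a Mastermind coactivator (MAML) to switch on target genes. Among these, HES1 and HEY1 encode basic helix-loop-helix repressors, and NRARP encodes an ankyrin-repeat protein that restrains the same complex. In the lung, Notch signalling is known for its part in the choice between secretory and ciliated fates of airway cells.

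The libraries held between 16322183 and 33530317 reads in genes. AKT1, for which construct and endogenous transcripts are not separated, had a log2 ratio of myr-AKT1 to vector of 0.57 in A549 and 1.14 in HCC827. All 6 epithelial markers examined had reads in every library, and their sum went from 5876 to 4953 RPM (reads per 1000000 recovered reads) in A549 and from 6959 to 3936 in HCC827. Within this list KRT8 and KRT18 had log2 ratios of -0.36 and -0.38 in A549 and -1.81 and -1.75 in HCC827. KRT19 was 6.28-fold higher in A549 and had a log2 ratio of -0.75 in HCC827. CDH1 was higher in both lines, at 1.39 in A549 and 0.31 in HCC827, and EPCAM had 0.59 and -0.22. CLDN7 went from 4 to 73 reads in A549 and had a log2 ratio of 0.66 in HCC827. The median log2 ratio of the 6 markers was 0.99 in A549 and -0.48 in HCC827. Of 4 lung lineage markers, SFTPC had 0 reads in all 4 libraries, and NKX2-1, the lineage factor of alveolar cells, had 0 reads in A549-vector and 1993 in HCC827-vector. The sum of these 4 was 1.43 and 1.51 RPM in the A549 pair and went from 240 to 141 in HCC827. The summed level of 5 leukocyte markers went from 1.31 to 30.2 RPM in A549 and from 0.989 to 4.84 in HCC827, mostly CD14, and CD3E had 0 reads in all 4 libraries. For 5 fibroblast markers the sums went from 3.58 to 39.3 and from 2.42 to 9.01 RPM, with COL1A2 at 0 throughout, and for 5 endothelial markers from 0.537 to 4.96 and from 3.81 to 9.86. The sums of these 3 lists are thus higher in both myr-AKT1 libraries, but not all of their genes are. COL1A1 held 142 of the 147 fibroblast reads in HCC827-myr-AKT1. PDGFRB went from 6 to 4 reads in A549 and from 4 to 1 in HCC827. PTPRC went from 1 to 7 reads in A549 and from 5 to 0 in HCC827. The part of all these marker differences in the results given here was not tested.

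Compared per length, NOTCH2 was the most abundant receptor mRNA, JAG1 the most abundant ligand and HES1 the most abundant target in each of the 4 libraries. The level used is reads per kilobase of annotated exon per 1000000 recovered reads (RPKM). NOTCH2 stood at 8.56 RPKM in A549-vector, 19.1 in A549-myr-AKT1, 35.0 in HCC827-vector and 68.2 in HCC827-myr-AKT1. It made up 65.8% of the summed RPKM of the 3 receptors in A549-vector cells, and between 83.3% and 88.2% in the other 3 libraries. JAG1 stood at 22.2 and 23.0 RPKM in A549-vector and A549-myr-AKT1, and at 10.5 and 14.9 in HCC827-vector and HCC827-myr-AKT1. DLL1 was close to the detection limit, from 0.172 RPKM in A549-vector down to 0 reads in HCC827-vector. HES1 stood at 7.50, 19.5, 10.1 and 10.7 RPKM in the same order of libraries, against at most 0.955 for HEY1 and at most 3.34 for NRARP.

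**Figure D1:**
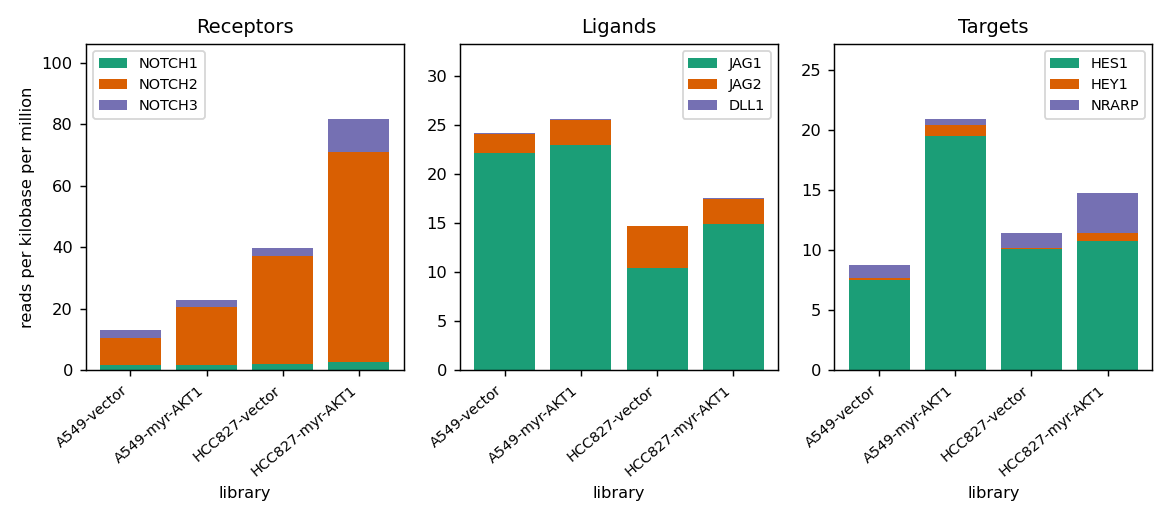
Stacked bars give the level of each receptor, ligand and target in RPKM (vertical axis, from 0) for the 4 libraries, 1 bar per library and no replicates. The receptor bars are mostly NOTCH2 and are tallest in HCC827-myr-AKT1, at a sum of 81.6, while the ligand bars are mostly JAG1 and the target bars mostly HES1.

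Within a line, each gene was compared by its normalised read count with myr-AKT1 over that with the vector, as a log2 ratio with a 95% Clopper-Pearson interval from the reads. Normalised read counts were scaled separately for each line, so levels in different lines are compared only as RPM or RPKM. A log2 ratio past 1 or -1, which is a 2-fold difference, was counted where the 2 libraries of a line held at least 10 reads of the gene. In A549, NOTCH2, HES1 and HEY1 were higher and NRARP was lower by this measure, 3 and 1 of 9 genes. Among all 21400 genes so measured in A549, 16.9% were higher and 11.8% lower. In HCC827, NOTCH3, HEY1 and NRARP were higher and none was lower, 3 and 0 of 8 genes, DLL1 having too few reads. Among the 19888 genes measured in HCC827, 15.3% were higher and 14.4% lower. The median log2 ratio was 0.03 over the 9 genes in A549 and 0.66 over the 8 in HCC827, beside -0.03 and -0.04 over all measured genes. HEY1 was the one gene of the 8 measured in both lines to be past 2-fold in the same direction in both, where 5.03% of all 17905 genes measured in both were higher in each. It is no longer counted in HCC827 when a mean value of at least 50 is asked for. In 4 of the 8 genes the ratios had opposite signs with both intervals excluding 0, against 13.1% of all genes, a share that depends on how many reads a gene has. Every interval and count here covers counting error only.

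**Figure D2:**
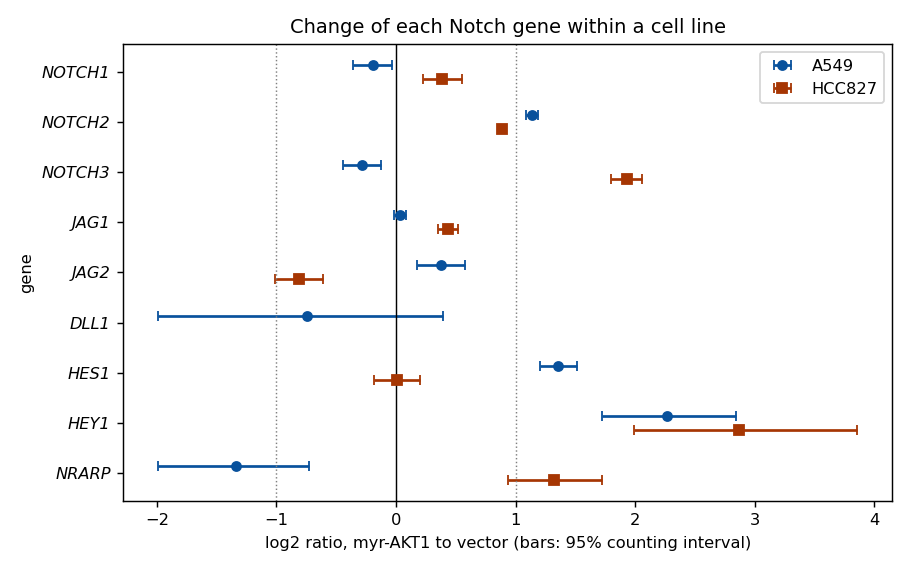
Points give the log2 ratio of myr-AKT1 to vector (horizontal axis) for each gene in A549 (circles) and HCC827 (squares), bars give 95% counting intervals and dotted lines mark 2-fold. HEY1 lies right of the dotted line in both lines, NRARP lies on opposite sides in the 2 lines, and DLL1 in HCC827 is left out for its 1 read.

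NOTCH2 (ENSG00000134250, chr1:119911553-120100779, minus strand, GRCh38) was higher with myr-AKT1 in both lines. Its normalised read count was 4197 in A549-vector and 9219 in A549-myr-AKT1, and 12713 in HCC827-vector and 23438 in HCC827-myr-AKT1. The myr-AKT1 library was thus the higher of the pair each time, by a log2 ratio of 1.14 (95% counting interval 1.08 to 1.19) in A549 and 0.88 (0.85 to 0.91) in HCC827. In RPM, NOTCH2 was 4.09-fold higher in HCC827-vector than in A549-vector. Its values are uncertain to the extent that reads could be split with the near-identical NOTCH2NL genes. The 4 NOTCH2NL genes together held 284 and 310 reads in A549 with the vector and myr-AKT1, and 503 and 328 in HCC827, which is between 1.76% and 5.91% of the reads of NOTCH2.

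NOTCH3 (ENSG00000074181, chr19:15159038-15200995, minus strand) was past 2-fold in HCC827 and not in A549. The normalised read count was 723 in A549-vector and 594 in A549-myr-AKT1, against 539 in HCC827-vector and 2051 in HCC827-myr-AKT1. The myr-AKT1 library was slightly the lower of the pair in A549 and clearly the higher in HCC827. The log2 ratio was -0.28 (-0.44 to -0.12) in A549 and 1.93 (1.80 to 2.06) in HCC827. The difference between these ratios was 2.21, with a Wald interval for counting error of 2.01 to 2.42, and it was not tested over cultures. In vector cells the 2 lines had nearly the same NOTCH3 level, 2.62 RPKM in A549 and 2.64 in HCC827, and with myr-AKT1 HCC827 was 4.85-fold above A549 in RPM.

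NOTCH1 (ENSG00000148400, chr9:136494433-136546048, minus strand) differed least among the receptors. It had 673 normalised reads in A549-vector, 589 in A549-myr-AKT1, 557 in HCC827-vector and 729 in HCC827-myr-AKT1. Each pair lay close together, with a log2 ratio of -0.19 (-0.36 to -0.03) in A549 and 0.39 (0.23 to 0.55) in HCC827.

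Of JAG1, JAG2 and DLL1, none was past 2-fold in A549, nor were the 2 that could be measured in HCC827. JAG1 (ENSG00000101384, chr20:10637684-10673999, minus strand), the ligand mutated in Alagille syndrome, had 6039 normalised reads in A549-vector and 6173 in A549-myr-AKT1, and 2112 in HCC827-vector and 2854 in HCC827-myr-AKT1. The A549 pair was nearly level, at a log2 ratio of 0.03 (-0.02 to 0.08), an interval that includes 0, and the HCC827 pair differed by 0.43 (0.35 to 0.52). Both A549 libraries were above both HCC827 libraries in RPM, by 2.12-fold between the vector libraries and 1.54-fold between the myr-AKT1 libraries.

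JAG2 (ENSG00000184916, chr14:105140982-105168824, minus strand) had 354 normalised reads in A549-vector and 459 in A549-myr-AKT1, and 595 in HCC827-vector and 340 in HCC827-myr-AKT1. The direction was opposite in the 2 lines, with a log2 ratio of 0.38 (0.17 to 0.58) in A549 and -0.81 (-1.02 to -0.61) in HCC827. The vector library was the higher one in HCC827 and the lower one in A549. In RPM, HCC827 was 2.27-fold above A549 with the vector, and with myr-AKT1 the ratio of 1.04 could not be told from level by its counting interval.

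DLL1 (ENSG00000198719, chr6:170282206-170306565, minus strand), a Delta-type ligand, had 22 reads in A549-vector, 10 in A549-myr-AKT1, 0 in HCC827-vector and 1 in HCC827-myr-AKT1. In A549 the log2 ratio of -0.75 had an interval of -1.99 to 0.39, so no difference was detectable at this depth. For HCC827 no ratio is given, since both libraries are at or under the floor of 3 reads, and 0 reads in HCC827-vector allow up to 0.11 RPM. An exon of FAM120B on the other strand overlaps DLL1, and FAM120B held from 884 to 1631 reads per library. Whether reads were counted by strand is not given in the sources used here.

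HES1 and NRARP are both described as direct targets of the RBPJ complex, and their promoters are shown because their ratios were unlike each other in both lines. RefSeq promoter windows, 250 bases before to 50 after the annotated start in GRCh38.p14, were found for 7 of the 9 genes. They were searched on both strands for TGGGAA, a core form of the RBPJ motif. Other forms of the motif were not searched, and whether a match bears on the ratios was not tested. HES1 had 2 matches, which begin 84 and 70 bases upstream of its start on the plus strand, and the other 6 windows had 0. DLL1 and HEY1 had no window, so they were not searched. Of all 35116 windows, 24.0% held this motif. For HES proteins, the motifs CACNAG and CACGNG, with N any base, were also searched. Both windows shown held both of them, with 4 and 4 matches for HES1 and 1 and 3 for NRARP. Of all windows, 38.0% held CACNAG and 30.5% CACGNG. Only the TGGGAA matches are in capitals, the HES1 window is chr3:194135898-194136197 (plus strand) and the NRARP window is chr9:137302222-137302521 (minus strand, read 5′ to 3′).
HES1: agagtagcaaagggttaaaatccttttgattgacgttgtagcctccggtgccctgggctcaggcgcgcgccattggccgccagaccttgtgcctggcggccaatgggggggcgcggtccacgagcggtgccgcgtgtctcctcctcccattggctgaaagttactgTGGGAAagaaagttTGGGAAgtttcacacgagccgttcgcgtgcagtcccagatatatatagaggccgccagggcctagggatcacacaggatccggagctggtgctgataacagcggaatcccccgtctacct
NRARP: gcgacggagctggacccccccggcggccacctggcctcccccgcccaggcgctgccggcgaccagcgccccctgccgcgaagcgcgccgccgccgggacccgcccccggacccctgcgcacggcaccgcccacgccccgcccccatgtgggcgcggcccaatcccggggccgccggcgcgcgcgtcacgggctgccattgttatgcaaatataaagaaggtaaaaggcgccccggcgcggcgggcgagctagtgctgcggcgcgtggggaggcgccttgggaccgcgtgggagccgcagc

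HES1 (ENSG00000114315, chr3:194136148-194138732, plus strand), whose window holds the 2 capitalised matches, was past 2-fold in A549 and level in HCC827. It had 452 normalised reads in A549-vector and 1157 in A549-myr-AKT1, and 451 in HCC827-vector and 454 in HCC827-myr-AKT1. The myr-AKT1 library was the higher of the A549 pair, and the HCC827 pair was level. The log2 ratio was 1.35 (1.20 to 1.51) in A549 and 0.01 (-0.19 to 0.20) in HCC827. The difference between the ratios, HCC827 minus A549, was -1.35 with a counting interval of -1.59 to -1.10. In RPM, HES1 was 1.35-fold higher in HCC827 than in A549 with the vector, and 1.81-fold higher in A549 with myr-AKT1.

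NRARP (ENSG00000198435, chr9:137299631-137302271, minus strand), whose window holds no TGGGAA, was past 2-fold in opposite directions in the 2 lines. It had 83.8 normalised reads in A549-vector and 33.2 in A549-myr-AKT1, from 96 and 29 reads. In HCC827-vector it had 72.3 and in HCC827-myr-AKT1 181, from 91 and 144 reads. As RPKM the vector libraries stood at 1.08 and 1.26, with A549-myr-AKT1 below both at 0.436 and HCC827-myr-AKT1 above both at 3.34. The log2 ratio was -1.34 (-1.99 to -0.72) in A549 and 1.33 (0.94 to 1.72) in HCC827, and the difference between them was 2.66 (1.95 to 3.37). Among the 17905 genes measured in both lines, 2.36% were past 2-fold in opposite directions.

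HEY1 (ENSG00000164683, minus strand of chromosome 8 from 79762371 to 79767857) had the highest log2 ratio of the listed genes measured in each line, 9 in A549 and 8 in HCC827. It had 31.4 normalised reads in A549-vector and 151 in A549-myr-AKT1, from 36 and 132 reads. In HCC827-vector it had 10.3 and in HCC827-myr-AKT1 75.5, from 13 and 60 reads. As RPKM both myr-AKT1 libraries, at 0.955 and 0.670, stood above both vector libraries, at 0.196 and 0.0867. The log2 ratio was 2.27 (1.72 to 2.84) in A549, a 4.81-fold difference, and 2.87 (1.99 to 3.86) in HCC827, a 7.31-fold difference. At a log2 ratio above 2, the threshold with which the study lists altered genes, HEY1 was the only one of the 9 genes in either line, where 6.69% of all measured genes passed in A549, 5.5% in HCC827 and 1.22% in both. NOTCH3 in HCC827 lay just under that threshold at 1.93 and reached 2.01 when scaled by total reads.

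A fit over all 4 libraries, with cell line as a covariate, treats the lines as 2 pairs and has 1 residual degree of freedom. To this limma added 6.77 prior degrees of freedom taken from all genes. Its SE and p thus do not measure only a gene's own spread over the lines. None of the 9 genes passed a Benjamini-Hochberg adjusted p of 0.05 in limma, where 1.29% of 19314 genes were called higher and 1.73% lower. The unadjusted limma p was under 0.05 for 2 of them, HEY1 and NOTCH2, beside 18.4% of the 19314 genes. HEY1, higher in 2 of 2 lines, reached 2.49 on the log2 scale, with an SE of 0.601 and adjusted p = 0.0766 in limma. NOTCH2, also higher in 2 of 2 lines, reached 1.01 with an SE of 0.249 and adjusted p = 0.0817 in limma. On recovered reads, edgeR's quasi-likelihood test called 0 of the 9. Its unadjusted p was under 0.05 for 2 of the 9, beside 16.7% of all genes it tested. The edgeR adjusted p was 0.0845 for HEY1 and 0.112 for NOTCH2. DESeq2's Wald test called both, with adjusted p = 0.0380 for HEY1 and 0.00222 for NOTCH2, while it called 4.41% of 14071 genes higher. Over all 8 fits made, the adjusted p ran from 0.00234 to 1 for HEY1 and from 0.00189 to 1 for NOTCH2. For NRARP, whose lines went opposite ways, limma gave 0.00 on the log2 scale with an SE of 0.707.

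The rest of the pathway was described with a list of 47 further genes, of which 44 could be measured in A549 and 39 in HCC827. The genes named from it that are not past 2-fold in both lines were picked after their values were seen. In A549, 5 of 44 were higher and 4 lower by more than 2-fold, with a median log2 ratio of 0.13, beside 16.9% higher, 11.8% lower and a median of -0.03 over all genes. In HCC827, 10 of 39 were higher and 1 lower, with a median of 0.37, beside 15.3% higher, 14.4% lower and a median of -0.04 over all genes. The limma fit called 0 of the 42 that it tested. Its unadjusted p was under 0.05 for 6 of the 42, beside 18.4% of all 19314 genes in that fit. HES2, a further HES-family gene, was the only one past 2-fold in the same direction in both lines, with 46 and 94 reads in A549, a log2 ratio of 1.42 (0.90 to 1.96), and 1 and 10 reads in HCC827, a log2 ratio of 3.98 (1.17 to 9.42). With the single read taken as the floor of 3 reads, HES2 was 5.28-fold higher in HCC827. Of all genes measured in both lines, 5.03% were higher by more than 2-fold in each. HES5, a classical Notch target in neural progenitors, had 0 reads in all 4 libraries, and HEYL had 126 and 99 reads in the A549 pair and 0 in both HCC827 libraries.

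Among the further ligands, DLL4, the Delta-type ligand of sprouting endothelium, had 68 reads in A549-vector and 12 in A549-myr-AKT1, a log2 ratio of -2.11 (-3.13 to -1.21). In HCC827 it had 14 and 24 reads, a log2 ratio of 1.44 (0.43 to 2.50). NEURL1B, an E3 ligase of the Neuralized family that acts on ligands, had a log2 ratio of -1.19 (-1.60 to -0.80) in A549 and 1.74 (1.45 to 2.03) in HCC827. DLL4 and NEURL1B were singled out after their values were seen. They were the 2 of 38 listed genes measured in both lines that were past 2-fold in opposite directions. Among all 17905 genes measured in both lines, 2.36% were so. DLL4 and NEURL1B were both lower in A549 and higher in HCC827, as NRARP was. DLL3 was lower in A549 at -1.41 (-1.82 to -1.03) and had -0.92 in HCC827, where the interval of -2.06 to 0.10 includes 0.

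The machinery shared by all receptors was counted by list. Over all genes, 16.9% were higher and 11.8% lower in A549, and 15.3% were higher and 14.4% lower in HCC827. Lists of this size hold too few genes to set apart from these shares. Of 9 genes for receptor cleavage, 1 was higher and 0 lower in each line, FURIN in A549 and APH1B in HCC827, and the medians were 0.31 and 0.32. The γ-secretase subunit NCSTN had a log2 ratio of 0.63 in A549 and 0.93 in HCC827. RBPJ itself was at -0.05 in A549 and -0.16 in HCC827. In the nuclear complex list of 7 genes, MAML2 was higher in A549. None of the 5 genes for receptor glycosylation was past 2-fold in A549, and MFNG and RFNG were higher in HCC827. Of 9 genes for receptor turnover, DTX3L was higher in A549, and DTX2 and DTX3 in HCC827.

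The genes nearest to each target over the 4 libraries were found by Euclidean distance between centred log2(RPM + 1) values, among 14374 other genes with at least 10 reads in every library. For HEY1 these were PRR5L at a distance of 0.0222 and BAMBI at 0.0977. For HES1 they were MYL5 at 0.118 and GATA2 at 0.145. For NRARP they were the pseudogene DSTNP2 at 0.276 and DTX2 at 0.282. Adding 1 compresses the differences of low genes such as HEY1 and NRARP. Over only 4 libraries, 163 genes lay within 0.5 of HES1, 45 of HEY1 and 32 of NRARP.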

How the data were processed

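According to the methods of the study, reads were trimmed, masked for low-quality and low-complexity sequence, mapped to hg38 with Bowtie2 and summarised per Ensembl gene with HTSeq. The methods speak of RPKM, whereas the deposited signal of a gene is its read count over a size factor of its library, which the values show to be set within each cell line. Dividing by the value of 1 read gave whole reads (within 0.001) for all but 1 gene in each vector library. The methods describe polyadenylated RNA and the labels rRNA depletion. Names and positions came from GENCODE release 44 on GRCh38 (60261 of 60558 identifiers matched), and exon lengths are the union over transcripts. Ratios used no pseudocount, and 3 reads served as the floor. limma 3.58.1 was fitted to log2(value + 1) with a mean-variance trend on genes kept by filterByExpr, edgeR 4.0.16 and DESeq2 1.42.0 to recovered reads, in R 4.3.3. The fits were first run on simulated counts, with changed genes that had many reads and changed alike in both lines. That run cannot show how the fits handle genes with few reads or with opposite ratios. The genes named are the 9 listed, pathway genes past 2-fold in both lines or called by the fit, defining genes of a list, the 2 genes nearest to each target and, outside this rule and chosen after their values were seen, pathway and marker genes that make up small counts or differ within a list. The members and lists were chosen with earlier results of these data known. Alternatives covered scaling, pseudocount, filter, threshold, tool and covariate. Some genes of the pathway lists are counted but not reported here by name.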

Additional observations from a re-analysis of the deposited data

Results flagged for a closer look

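In 4 of the 8 genes with a ratio in both lines the log2 ratio of myr-AKT1 to vector was above 0 in one line and below 0 in the other, and neither 95% counting interval included 0, as was so for 13.1% of all 17905 genes measured in both. NOTCH1 was at -0.19 in A549 and 0.39 in HCC827, NOTCH3 at -0.28 and 1.93, JAG2 at 0.38 and -0.81, and NRARP at -1.34 and 1.33. The difference between lines was not tested, because each line has 1 pair of libraries. The 4 genes kept these signs under TMM, total reads and size factors over all 4 libraries. The signs were compared, not the intervals. Size factors over all 4 libraries added 0.10 to every A549 ratio and put NOTCH1 there at -0.09. Its counting interval ended at -0.03 before this shift, so with that scaling it would no longer exclude 0.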

How the results depend on the processing

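With a log2 ratio of 2 as the threshold, 1 gene was higher in A549, 0 were lower there and 1 was higher in HCC827. The other scalings, a pseudocount of 1 and other filters left the counts of genes past 2-fold within 1.5 times, but with a mean value of at least 50 HCC827 kept 2 of its 3 higher genes and HEY1 was no longer counted there. Size factors over all 4 libraries added 0.10 to every A549 log2 ratio, and HES1 in HCC827 ranged from -0.00 to 0.09 over the 3 scalings. Across both lines, 2 genes were called higher by DESeq2's Wald test and 2 by limma without a filter on low values, namely HEY1 and NOTCH2, and 0 without the covariate for cell line or under the other settings. Without the filter the prior degrees of freedom in limma were infinite, so a gene's own spread between lines did not enter its p. Over all genes, the calls higher and lower were 250 and 335 as reported, 621 and 518 by DESeq2, 1101 and 894 without a filter, 112 and 191 with a pseudocount of 0.5, 42 and 96 on TMM-scaled values, and 0 and 0 in limma without the covariate, where 631 genes had an unadjusted p under 0.05. The small log2 fold change of DLL1 changed sign in edgeR (-0.20) and with a pseudocount of 5 (-0.12), and that of NRARP with a pseudocount of 0.5 (-0.0019); the cause was not tested. Leaving out a library leaves no residual degree of freedom in this fit, so no such fit was made. Depth limits DLL1 in both lines and HEY1 in HCC827-vector, which had 13 reads.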
